A study of Mus musculus with 12 samples.

Results

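The comparison set leukaemia cells of the spleen against leukaemia cells of the peritoneal cavity in TCL1-192 mice. It used the 8 arrays whose titles name TCL1-192 cells, out of 12 arrays in the study, chosen by title alone: 4 arrays of spleen cells and 4 of peritoneal cells. In each tissue 2 arrays held PtC+ cells, which bind phosphatidylcholine (PtC), and 2 held PtC- cells, which do not. The labels give the genotype as TCL1-192, the background as mixed C3H/C57BL/6 and the disease as chronic lymphocytic leukaemia (CLL) for all 8, and they give that disease for the wild type arrays too. TCL1 is an oncogene that gives mice a B-cell leukaemia resembling human CLL when it is expressed in B cells. What 192 stands for, the promoter of the transgene, the animals' age, how many animals gave the cells and how the PtC classes were separated are things the sources used here do not state. The p-values therefore measure the spread between arrays, which may be technical. The other 4 arrays held peritoneal cells of wild type and of young TCL1 mice, 1 PtC+ and 1 PtC- array each, on the same mixed background, and served only to place levels. The series' stated purpose was to find expression signatures of CLL cells from spleen and peritoneum that go with responsiveness to autoantigen.

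PtC is a membrane lipid and a self antigen that many B-1 cells recognise, and B-1 cells are the main B cells of the peritoneal cavity. A B cell that binds antigen through its B cell receptor (BCR) switches on immediate-early genes within minutes through kinase cascades, and these genes encode transcription factors, phosphatases and RNA-binding proteins that shape and end the response. The same genes also respond to stress, to cell handling and to growth factors, so their mRNA level alone does not name the trigger. In the spleen, leukaemia cells of TCL1 mice lie among stromal and other immune cells; in the peritoneal cavity they float with macrophages.

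The tissues differed broadly. Of 12067 genes tested, 3162 passed the test (26.2%): 1877 (15.6%) were higher and 1285 (10.6%) lower in the spleen. The test was limma with PtC class as a term, at a Benjamini-Hochberg adjusted p of 0.05, and log2 differences below are spleen minus peritoneum with their standard error (±). At least a 2-fold change was seen for 914 genes higher (7.57%) and 468 lower (3.88%) in the spleen. Without regard to the test, all 4 spleen arrays lay above all 4 peritoneal arrays for 2185 genes (18.1%), and below them for 1635 (13.5%). The first principal component, with 58.2% of the variance, separated the tissues (spleen 35.72 to 47.14, peritoneum -53.16 to -20.79). Shares of list members that rose or fell are to be read against the 15.6% and 10.6% of all genes. The median log2 difference over all genes was -0.0132. Centring each array on its median in place of quantile normalization moved that median by 0.303, and 88.4% rather than 59.4% of the calls were then higher in the spleen. All differences below are relative to the quantile scale.

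Arrays differed in quality on 1 point that touches these results. The PtC- peritoneal array of replicate 2 had a median signal of 219.2 and detected 10711 probes, against 105.2 to 121.4 and 13825 to 15030 on the other 7. Without it, 3703 genes passed, and of the 3162 genes 2976 were called again and 2 changed sign. Leaving out another array gave 1985 to 3791 calls, fewest without spleen PtC+ replicate 2 (1985), spleen PtC+ replicate 1 (1994) and peritoneal PtC+ replicate 1 (2092), in each case with 0 of the 3162 changing sign. Levels are log2 normalized intensities, and the brightest probes reached 15.48, so differences of genes near that ceiling are compressed. A gene undetected on every array of a tissue has only a bound there. Its fold is given as at least N-fold, the bright side against the lowest detected value of each dim array. Where 4 levels of a tissue are listed, their order is PtC+ replicates 1 and 2, then PtC- replicates 1 and 2. The lowest detected level of the PtC- peritoneal array of replicate 2 was 6.46, against 5.51 to 5.69 on the other 7. A level under 6.46 listed for that array is therefore of an undetected probe.

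Of the pathway lists, immediate-early transcription factors had the largest share of members higher in the spleen (84.2%). Of 19 measured, 16 rose and 0 fell, with a median log2 difference of 1.87 and for all 16 every spleen array lay above every peritoneal array. Fosb, an AP-1 subunit, had levels of 12.07, 12.04, 11.51 and 11.64 in the spleen and was undetected on every peritoneal array, at least 62.1-fold higher (adjusted p = 1.03e-06). Egr3, a zinc finger factor induced by ERK and calcium signals, had levels of 9.33, 10.39, 9.31 and 10.14 against 6.99, 5.86, 7.16 and 4.93, a difference of 3.56 ± 0.50. The peritoneal arrays of replicate 2 were lower than those of replicate 1 for Egr3, and it was undetected on 1 of them. Junb was at 12.37, 11.97, 11.84 and 11.72 in the spleen and at 8.81, 8.87, 8.95 and 8.70 in the peritoneum (3.14 ± 0.17, adjusted p = 8.06e-06). The closest arrays of the tissues were more than 2 log2 units apart for Junb. Fos, its dimer partner, differed by 4.85 ± 0.17, Jun by 3.72 ± 0.31 and Atf3, a stress-induced relative, by 5.33 ± 0.26. Egr2 was undetected on every peritoneal array and at least 16.4-fold higher in the spleen. The 3 members without a call were Myc (0.52 ± 0.39, adjusted p = 0.355), the AP-1 subunit Fosl2 (0.33 ± 0.24) and the survival gene Ier3 (-0.42 ± 0.22). Myc levels of 7.86, 8.09, 7.59 and 8.48 in the spleen overlapped the peritoneal 8.09, 6.97, 8.25 and 6.64.

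Promoters of 4 genes are shown because the first 3 rose (Srf by 0.94 ± 0.18) and Ldha fell with other glycolytic genes. Srf and Ldha were chosen after their values were seen. Each is the 300 bases from 250 before to 50 after the gene's start in RefSeq (GRCm38.p6), 5′ to 3′ on the gene's strand. Capitals mark the core of the cAMP response element (partial CRE, TGACG or its complement) in Fos and Dusp1, where Dusp1 also holds the full element TGACGTCA. In Srf they mark the CArG box, which serum response factor binds, and in Ldha the hypoxia response core, ACGTG or GCGTG, with overlapping matches run together. All motifs were searched on both strands.
Fos, chr12:85473640-85473939, plus strand: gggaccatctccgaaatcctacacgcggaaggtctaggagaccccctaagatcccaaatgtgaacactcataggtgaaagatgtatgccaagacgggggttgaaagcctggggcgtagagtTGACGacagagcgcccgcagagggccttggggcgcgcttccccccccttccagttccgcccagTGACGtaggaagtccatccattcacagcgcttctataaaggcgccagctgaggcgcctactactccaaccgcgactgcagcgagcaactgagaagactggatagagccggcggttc
Dusp1, chr17:26508423-26508722, minus strand: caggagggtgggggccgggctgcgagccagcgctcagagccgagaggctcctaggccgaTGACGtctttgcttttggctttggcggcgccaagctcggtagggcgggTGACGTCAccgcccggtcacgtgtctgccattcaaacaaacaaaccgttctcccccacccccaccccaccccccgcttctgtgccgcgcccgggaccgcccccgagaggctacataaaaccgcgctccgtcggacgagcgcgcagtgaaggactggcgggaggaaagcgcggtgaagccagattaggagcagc
Srf, chr17:46556113-46556412, minus strand: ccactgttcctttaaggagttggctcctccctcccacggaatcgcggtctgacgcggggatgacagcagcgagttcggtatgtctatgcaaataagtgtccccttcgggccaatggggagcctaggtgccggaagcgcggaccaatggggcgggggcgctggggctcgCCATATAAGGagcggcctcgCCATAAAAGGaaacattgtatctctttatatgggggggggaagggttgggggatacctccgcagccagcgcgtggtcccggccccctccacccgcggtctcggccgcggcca
Ldha, chr7:46845554-46845853, plus strand: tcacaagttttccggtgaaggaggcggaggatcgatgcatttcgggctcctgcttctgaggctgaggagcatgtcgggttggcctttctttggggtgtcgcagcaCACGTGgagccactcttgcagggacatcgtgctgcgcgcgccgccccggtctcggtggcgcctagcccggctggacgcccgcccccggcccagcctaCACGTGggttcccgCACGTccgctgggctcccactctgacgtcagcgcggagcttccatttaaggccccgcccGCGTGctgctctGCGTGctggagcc
Promoters were found for 7569 of the genes tested. A full CRE lay in 3.87% of the promoters of genes higher in the spleen, 2.06% of those lower and 3.42% of all tested. For the CArG box the shares were 1.71%, 1.69% and 1.4%, and for an NF-kB site 6.3%, 4.84% and 4.97%. A partial CRE lay in 32.3%, 31.1% and 33% of these promoters. The hypoxia core lay in 61.7% of promoters of genes higher, 64.8% of those lower and 63.5% of all. Of the 15 immediate-early factors with a promoter, 1 held a CArG box and 7 a partial CRE. These matches describe letters in a short window and were not tested.

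Feedback inhibitors of the same pathways split. Of 13 measured inhibitors of ERK and other MAP kinases, 5 rose and 2 fell, with a median of -0.26. That median turned to 0.14 under median centring. Nuclear phosphatases rose: Dusp1 was at 11.75, 11.73, 12.28 and 11.92 against 7.17, 7.74, 7.78 and 8.11 (4.22 ± 0.18) and Dusp2 at 10.93, 10.35, 10.71 and 10.13 against 6.79, 6.38, 6.59 and 5.06. For both, the lowest spleen array lay more than 3 log2 units above the highest peritoneal array. Dusp4 was undetected in the peritoneum and at least 1.53-fold higher in the spleen (adjusted p = 0.0015), and Dusp14, of another subgroup, rose by 1.77 ± 0.25. Dusp6, the cytoplasmic phosphatase specific for ERK, did not pass (-0.34 ± 0.17, adjusted p = 0.163), with levels above 11 on all 8 arrays. Spred1, which blocks RAS signalling to RAF, fell: its levels were 8.64, 8.71, 8.73 and 8.63 in the spleen and 9.70, 9.78, 10.10 and 9.98 in the peritoneum (-1.21 ± 0.14, adjusted p = 0.000631). The EGF receptor inhibitor Errfi1 was undetected in the spleen and detected on 3 of 4 peritoneal arrays, where it was at least 1.71-fold higher.

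Immediate-early genes of mRNA decay and growth arrest rose where they differed. Of 15 mRNA decay and antiproliferative immediate-early genes 8 rose and 0 fell, with a median of 0.9. Zfp36, whose protein tristetraprolin destabilises cytokine mRNAs, was at 13.02, 12.99, 12.66 and 13.04 in the spleen against 9.80, 9.35, 10.24 and 10.18 (3.03 ± 0.21). Myd116 (now Ppp1r15a), which directs a phosphatase to the translation factor eIF2α, differed by 4.70 ± 0.28, and Plk2, a polo-like kinase, by 3.81 ± 0.17. The growth arrest genes Gadd45b (1.67 ± 0.25) and Gadd45g (1.70 ± 0.28) rose, and Gadd45a (-0.08 ± 0.23) did not pass. Btg1, an antiproliferative gene, was between 12.67 and 13.07 on all 8 arrays. Of 9 targets of cAMP, CREB and salt-inducible kinases, 6 rose and 0 fell, with a median of 1.07. Among them were the kinase gene Snf1lk (now Sik1; 2.17 ± 0.36), the cAMP phosphodiesterase Pde4b (1.98 ± 0.18) and the clock genes Per1 (1.55 ± 0.33) and Per2 (1.07 ± 0.19). Pde4b stood at 9.59, 9.47, 9.18 and 9.28 in the spleen and 7.43, 7.503, 7.70 and 6.95 in the peritoneum, without overlap. Crem, a cAMP-responsive factor, had no call over the 8 arrays (-0.31 ± 0.42) but was called lower in the spleen without the PtC- peritoneal array of replicate 2 (-0.88 ± 0.18, adjusted p = 0.0045). Adora2a, an adenosine receptor among the 6 that rose (0.75 ± 0.23), lost its call without that array (adjusted p = 0.054).

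NF-kB genes were higher where they differed over the 8 arrays. Of 17 subunits and feedback inhibitors 8 rose and 0 fell, with a median of 0.71. Without the PtC- peritoneal array of replicate 2, 8 rose and 1 fell, with a median of 0.56. Tnfaip3, which encodes the ubiquitin-editing inhibitor A20, was at 7.09, 7.35, 6.89 and 7.35 in the spleen and undetected on all peritoneal arrays (at least 2.48-fold, adjusted p = 0.000243). Nfkbid, a nuclear IkB protein, was at 11.50, 11.76, 11.02 and 11.64 against 9.68, 9.01, 9.78 and 9.16 (2.07 ± 0.24). Rel, the subunit c-Rel, rose by 1.46 ± 0.27 and the adaptor Traf1 by 1.47 ± 0.17. Rela (0.25 ± 0.21), Nfkb1 (0.01 ± 0.21) and the inhibitor Nfkbia (-0.05 ± 0.18) did not pass. Of 7 TNF family receptors and ligands 3 rose: Tnfrsf13c, the BAFF receptor that B cells need to survive (0.95 ± 0.16), Tnfrsf1b (1.36 ± 0.28) and Tnfrsf8, which was undetected in the peritoneum.

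Surface activation genes moved both ways. Of 15 measured 4 rose and 2 fell, with a median of 0.33, which became -0.04 when undetected values were raised to the lowest detected level. Without the PtC- peritoneal array of replicate 2, 5 rose and 4 fell. Cd69, an early activation marker, was at 12.31, 12.61, 12.44 and 12.48 in the spleen and 11.09, 11.90, 10.98 and 11.40 in the peritoneum (1.12 ± 0.21). The ligands of the inhibitory receptor PD-1 rose, Cd274 by 1.06 ± 0.17 and Pdcd1lg2 by 1.15 ± 0.21. Cd40, the receptor for T cell help, fell by 0.94 ± 0.21, and the lipopolysaccharide receptor Tlr4 by 0.99 ± 0.29, although the PtC- peritoneal array of replicate 2 lay among the spleen arrays for Tlr4. Cd86 (-0.04 ± 0.18) and Cd83 (-0.28 ± 0.18) did not pass.

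Il10 rose the most of the cytokine genes. It encodes an anti-inflammatory cytokine that B-1 cells are known to make, and had levels of 10.39, 10.16, 10.20 and 10.34 in the spleen and 7.89, 7.12, 7.29 and 7.10 in the peritoneum (2.92 ± 0.20, 7.58-fold, adjusted p = 4.09e-05). All spleen arrays lay more than 2 log2 units above all peritoneal arrays, and the wild type and young TCL1 arrays were lower still, at 6.20, 4.94, 6.44 and 6.46. Of 15 chemokines and cytokines 5 rose and 5 fell, with a median of -0.05. Csf1, a macrophage growth factor detected on 1 of 4 peritoneal arrays, rose by 1.13 ± 0.25, and Ccl17 was undetected in the peritoneum. Among the falls, Ccl9, Ccl6 and Cxcl13 were undetected on every spleen array. Cxcl13, the chemokine that draws B cells through CXCR5, had peritoneal levels of 7.70, 8.72, 8.06 and 8.60 and was at least 6.57-fold higher there. Macrophages make all 3 of these chemokines, and macrophage markers moved with them, as described below. Cxcr5 itself had no call, at 12.50, 12.71, 12.79 and 12.90 against 12.49, 12.20, 12.83 and 12.86 (0.13 ± 0.15).

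**Figure D1:**
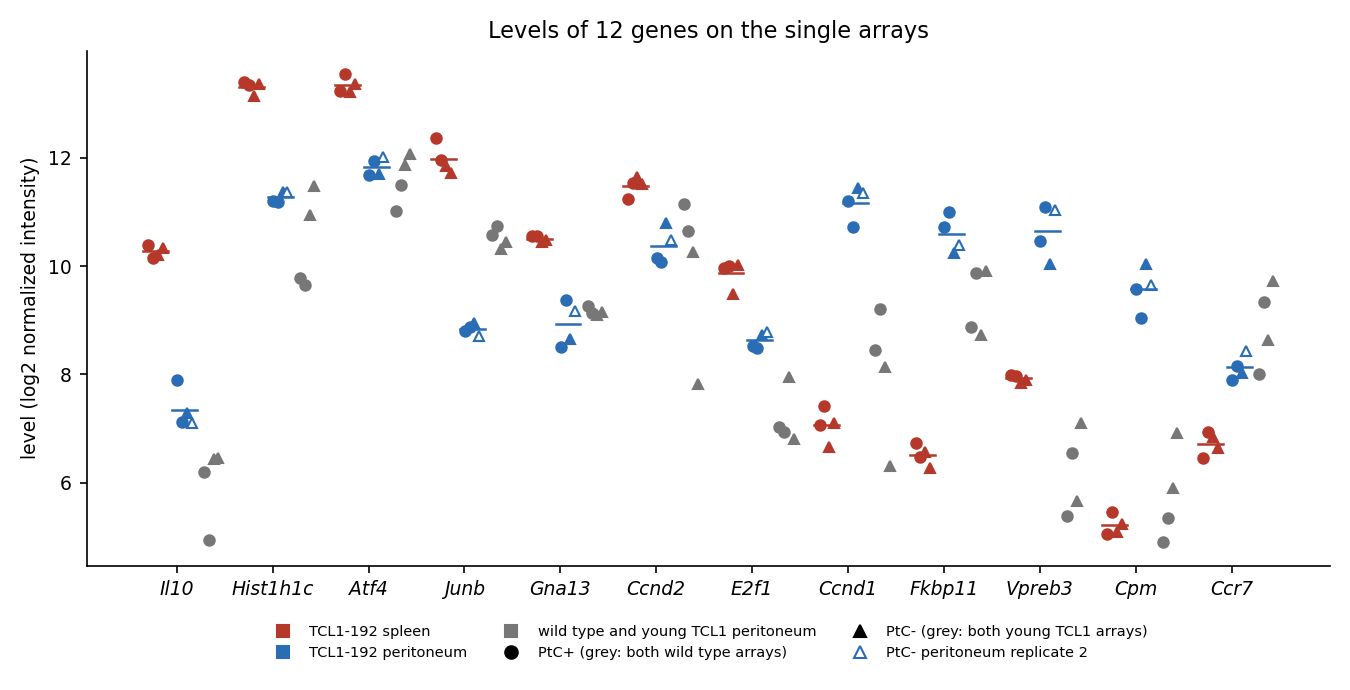
Log2 normalized intensity of 12 genes on each array, with a bar at the mean of the 4 spleen (red) and 4 peritoneal (blue) TCL1-192 arrays, and the 4 wild type and young TCL1 peritoneal arrays in grey. Circles are PtC+ and triangles PtC- for TCL1-192 arrays, while grey circles are wild type and grey triangles young TCL1, and the open triangle is PtC- peritoneal replicate 2. Spleen and peritoneum do not overlap for any of the 12, and Cpm was undetected on all spleen arrays.

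Components of BCR signalling rose in part. Of 25 measured, 10 rose and 1 fell, with a median of 0.38. Plcg2, the phospholipase that opens the calcium arm, was at 12.60, 12.69, 12.60 and 12.48 against 11.40, 10.84, 12.18 and 11.98 (0.99 ± 0.24). The calcium channels Itpr1 (0.98 ± 0.15) and Itpr2 (1.04 ± 0.23), the kinase Prkcb (1.09 ± 0.26) and the calcium-regulated factor Nfatc1 (1.16 ± 0.32) rose too, as did the kinase Syk (0.93 ± 0.18). The receptor chain Cd79b (0.15 ± 0.14) and the kinase Blk (0.21 ± 0.19) did not pass. Peritoneal PtC+ arrays were lower than peritoneal PtC- arrays for Plcg2, Prkcb, Itpr2 and Nfatc1. In PtC+ cells these genes differed by 1.52 ± 0.23, 1.72 ± 0.21, 1.58 ± 0.20 and 1.79 ± 0.35. In PtC- cells they differed by 0.46 ± 0.23, 0.47 ± 0.21, 0.51 ± 0.20 and 0.52 ± 0.35, without passing. Itpr1 (1.14 ± 0.19 and 0.82 ± 0.19) and Syk (0.87 ± 0.26 and 0.98 ± 0.26) were closer between the classes. The test between the classes called none of them. Of 19 inhibitory receptors and phosphatases 3 rose (15.8%) and 2 fell (10.5%), shares near those of all genes. Without the PtC- peritoneal array of replicate 2, 5 rose and 4 fell. Siglecg, a sialic acid receptor that restrains B-1 cells, rose by 1.24 ± 0.21 and Ceacam1 by 1.10 ± 0.28, while Btla fell by 0.83 ± 0.13 and Fcrl1 by 1.14 ± 0.23.

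Of 18 G protein signalling genes 6 rose and 0 fell, with a median of 0.33. Leaving out the PtC- peritoneal array of replicate 2 gave 7 rises and 1 fall, with a median of 0.17. Gna13, a G protein subunit that confines germinal centre B cells, was at 10.56, 10.55, 10.45 and 10.48 in the spleen and 8.50, 9.37, 8.65 and 9.17 in the peritoneum (1.59 ± 0.21, adjusted p = 0.00127). The 4 spleen levels lay close together, more than 1 log2 unit above the highest peritoneal level. Arhgef1, the exchange factor that acts below Gna13, rose by 0.90 ± 0.26 and Gnai2, the subunit that carries chemokine signals, by 0.86 ± 0.18. Rgs1, which shortens chemokine receptor signals, was undetected in the peritoneum and at least 1.87-fold higher in the spleen (adjusted p = 0.000136).

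Of 12 homing receptors and regulators, which guide B cells through tissues, 1 rose and 2 fell, a share near that of all genes. Klf2, a transcription factor that controls lymphocyte trafficking, rose by 0.86 ± 0.21. Ccr7, the receptor for lymph node chemokines, was at 6.45, 6.93, 6.84 and 6.65 in the spleen and 7.90, 8.15, 8.03 and 8.43 in the peritoneum and fell by 1.41 ± 0.18 (adjusted p = 0.000874). Adora2b was undetected in the spleen. Cxcr4 levels in the peritoneum were 9.59, 10.85, 9.38 and 10.68, so replicate 2 lay above replicate 1 in both PtC classes, and Cxcr4 had no call (0.14 ± 0.33). Of 19 integrin and adhesion genes 6 rose and 3 fell. Itgb7, an integrin chain of gut homing, was at 13.29, 13.14, 13.42 and 13.06 against 12.29, 11.45, 12.79 and 12.14 (1.06 ± 0.25). Cd9, a tetraspanin of B-1 and marginal zone cells, rose by 1.33 ± 0.19, Cd44 by 0.67 ± 0.16 and Itgal by 0.96 ± 0.23, Itgal with overlap between the tissues. F11r, a junctional adhesion molecule, was undetected in the peritoneum and at least 1.66-fold higher in the spleen, and Itgb5 was undetected in the spleen.

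B-lineage transcription factors were more often higher than lower, 10 and 4 of 26, with a median of 0.46. Bhlhb3 (now Bhlhe41), a factor B-1a cells need, was at 7.43, 7.502, 7.60 and 7.45 in the spleen against 5.17, 5.54, 6.44 and 4.87 (1.99 ± 0.30). Only 1 of 4 peritoneal arrays detected it. Arid3a, another factor of B-1 development, rose by 1.28 ± 0.18, Zbtb32, a repressor of memory B cell responses, by 1.37 ± 0.25, and Foxp1 by 1.26 ± 0.27. Id2, an inhibitor of E proteins, rose by 1.49 ± 0.22. Bcl6, the germinal centre repressor, fell by 1.41 ± 0.35, with peritoneal levels of 8.30, 7.25, 8.97 and 7.44. Those levels were higher in replicate 1 of both PtC classes, and no spleen array (6.58, 6.22, 7.01 and 6.53) reached them.

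Fkbp11 fell the most of the plasma cell and secretory genes. It encodes a prolyl isomerase of the endoplasmic reticulum that plasma cells express, and was at 6.74, 6.48, 6.57 and 6.28 in the spleen and 10.72, 11.01, 10.25 and 10.39 in the peritoneum. That is -4.08 ± 0.17 log2 units, a 16.9-fold fall (adjusted p = 2.32e-06), and wild type and young TCL1 peritoneal arrays lay between, at 8.88, 9.88, 8.72 and 9.91. Xbp1, which drives expansion of the secretory apparatus, fell by 0.96 ± 0.15 and the chaperone partner Sdf2l1 by 1.04 ± 0.14. Prdm1, which encodes the plasma cell repressor Blimp-1, went the other way: it was undetected in the peritoneum and at least 1.2-fold higher in the spleen. Irf4 (0.14 ± 0.21) and Herpud1 (-0.05 ± 0.14) did not pass. Of the 22 members 1 rose and 5 fell, and under median centring 1 rose and 1 fell. The fall of Ssr1, a subunit of the translocon complex (-0.67 ± 0.21), was lost without the PtC- peritoneal array of replicate 2.

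Vpreb3 and Cpm also fell. Vpreb3, a B-lineage protein of the endoplasmic reticulum related to the surrogate light chain, was at 7.98, 7.97, 7.85 and 7.90 in the spleen and 10.46, 11.10, 10.03 and 11.04 in the peritoneum (-2.73 ± 0.24, adjusted p = 0.000159). Cpm, a membrane carboxypeptidase, was undetected in the spleen, at 9.58, 9.05, 10.03 and 9.64 in the peritoneum and at 4.90, 5.34, 5.89 and 6.92 in wild type and young TCL1 cells, at least 16.3-fold lower in the spleen. Of 18 marginal zone and follicular genes 3 rose and 4 fell. Dtx1, a NOTCH target, rose by 1.50 ± 0.31 and Hes1, another NOTCH target, fell by 0.95 ± 0.17.

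Among the cell cycle genes, cyclins D1 and D2 moved in opposite directions. Ccnd1, cyclin D1, which drives cells through G1 and which normal mature B cells hardly use, was at 7.06, 7.41, 6.67 and 7.10 in the spleen and 11.20, 10.72, 11.43 and 11.35 in the peritoneum. It fell by 4.12 ± 0.22 log2 units, 17.3-fold (adjusted p = 9.59e-06), with more than 3 log2 units between the closest arrays. Ccnd2, cyclin D2, which B cells induce after BCR stimulation, moved the opposite way, at 11.23, 11.54, 11.64 and 11.51 against 10.15, 10.08, 10.79 and 10.49 (1.10 ± 0.16, adjusted p = 0.0018). E2f1, the S phase transcription factor, was at 9.97, 10.002, 9.49 and 10.03 against 8.52, 8.50, 8.73 and 8.78 (1.24 ± 0.18), and Rb1, which restrains it, rose by 1.19 ± 0.19. Ccng2, a cyclin of cells leaving the cycle, fell by 1.40 ± 0.23. Cdk4 (-0.13 ± 0.13) and Cdk2 (0.22 ± 0.17) did not pass. Of 19 G1 genes 4 rose (21.1%) and 2 fell (10.5%), beside 15.6% and 10.6% of all genes.

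Replication and mitosis genes rose in a minority. Of 25 replication genes 5 rose and 1 fell, with a median of 0.32, and of 22 mitosis genes 5 rose and 0 fell, with a median of 0.33. Under median centring 11 of the 22 mitosis genes rose, and 8 did so without the PtC- peritoneal array of replicate 2. Pole, the catalytic subunit of DNA polymerase epsilon, rose by 1.86 ± 0.27, the maintenance methylation factor Uhrf1 by 1.11 ± 0.21 and Mcm2 of the replicative helicase by 0.65 ± 0.16. Mki67, the proliferation marker, was at 10.91, 10.92, 9.76 and 10.58 in the spleen and 8.46, 7.91, 8.27 and 8.47 in the peritoneum (2.27 ± 0.27). Of the spleen arrays, PtC- replicate 1 was the lowest. The spindle genes Kif23 (1.05 ± 0.24) and Prc1 (0.84 ± 0.17) rose, while Birc5 (0.29 ± 0.19) and Mcm5 (0.47 ± 0.17) did not pass. Ung, which removes uracil from DNA, fell by 0.68 ± 0.13. All 10 replication and mitosis genes that rose had a lower mean on the 4 wild type and young TCL1 arrays than in either TCL1-192 tissue. Of all 1877 genes higher in the spleen, 463 did.

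Most histone genes rose. Of 36 replication-dependent histone genes measured, 26 rose (72.2%) and 0 fell, with a median of 0.82, and 28 had all spleen arrays above all peritoneal arrays. These genes are transcribed in S phase, and their mRNAs mostly end in a stem-loop and not in poly(A). The labelling kit named in the labels is known to prime on poly(A), and the part this had in the values was not tested. By class, both H1 genes rose (median 1.59), as did 5 of 5 H3 genes (1.52), 9 of 13 H2A genes (0.75), 7 of 10 H2B genes (0.79) and 3 of 6 H4 genes (0.58). Hist1h1c, a linker histone gene whose mRNA is known to be polyadenylated in part, was at 13.41, 13.34, 13.15 and 13.37 in the spleen and 11.20, 11.18, 11.38 and 11.37 in the peritoneum (2.03 ± 0.14, adjusted p = 5.01e-05). Hist1h2ac was at 8.11, 6.98, 8.02 and 6.76 in the spleen and undetected in the peritoneum, at least 3.05-fold higher. For Hist1h2ac both replicate 1 arrays of the spleen were over 1 log2 unit above both replicate 2 arrays. Hist1h3a rose by 1.58 ± 0.16 and Hist1h3e by 1.58 ± 0.18. Hist1h2ad, Hist1h2af and Hist1h2ao had no call and lay at 14.74 to 15.32, near the ceiling of 15.48. Histone genes of a class are nearly identical, so 1 probe may report several of them. All 26 that rose had a lower mean on the wild type and young TCL1 arrays than in either TCL1-192 tissue, beside 463 of all 1877 genes higher in the spleen.

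**Figure D2:**
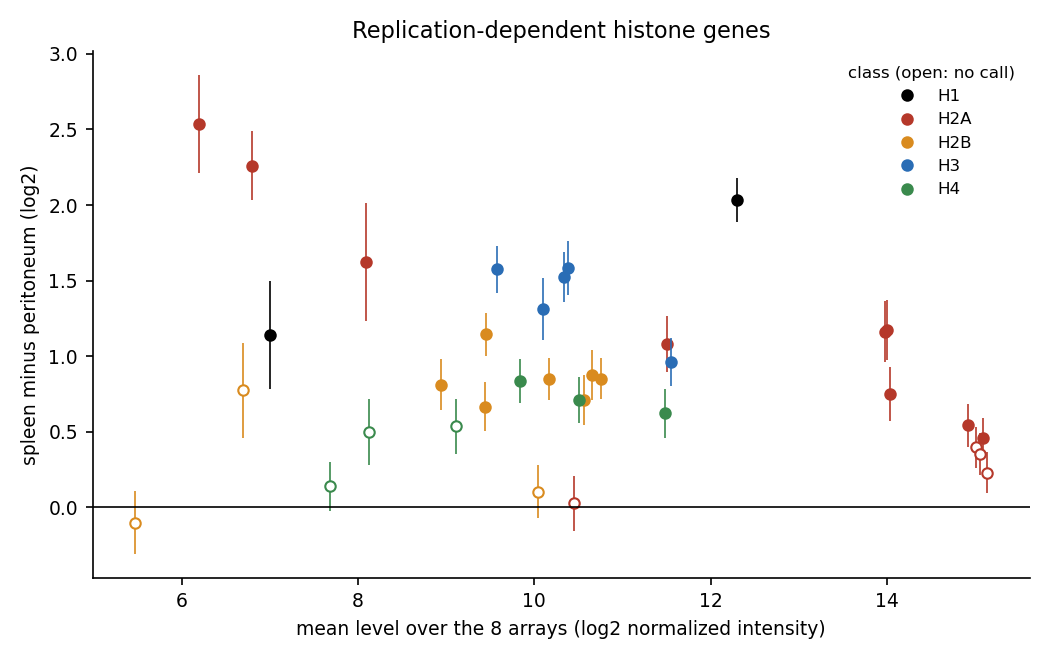
Log2 difference (spleen minus peritoneum) with its standard error for 36 histone genes, against their mean level over the 8 arrays, coloured by histone class. Filled points passed the test and open points did not, and 26 of 36 are filled, all above 0. The H2A genes at the right sit close to the array ceiling.

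Glycolytic genes fell where they passed. Of 21 measured 0 rose and 9 fell, with a median of -0.4, which under median centring became -0.13, with 1 rise and 4 falls. Ldha, the lactate dehydrogenase chain whose promoter is printed above, was at 12.36, 12.11, 12.34 and 12.004 against 13.26, 13.27, 13.27 and 12.91 (-0.98 ± 0.16). Pfkm, a phosphofructokinase, was at 6.30, 6.51, 5.91 and 6.82 in the spleen and 8.19, 7.996, 8.35 and 8.55 in the peritoneum (-1.89 ± 0.22, adjusted p = 0.00062). The closest Pfkm arrays of the tissues were more than 1 log2 unit apart. Aldoc fell by 1.52 ± 0.23, the glucose transporter Slc2a3 by 1.39 ± 0.16 and the enolase Eno1 by 1.00 ± 0.19. Gapdh (0.00 ± 0.19) and Gpi1 (0.03 ± 0.17) did not pass.

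Hypoxia-inducible genes outside glycolysis fell with them, 7 of 15, with 1 rise and a median of -0.79. Under median centring 5 fell and 2 rose, with a median of -0.4. Bnip3l, a mitophagy receptor, was at 9.60, 10.12, 10.17 and 10.21 against 11.26, 11.73, 11.20 and 11.18 (-1.32 ± 0.21). Ankrd37 fell by 1.41 ± 0.26, the histone demethylase Jmjd1a (now Kdm3a) by 0.85 ± 0.15 and the cytokine Mif by 0.84 ± 0.17. Adm, which encodes adrenomedullin, was the rise on the quantile scale. It was at 7.77, 8.29, 7.48 and 8.08 in the spleen and 5.35, 6.28, 5.69 and 5.36 in the peritoneum (2.23 ± 0.25). Wild type and young TCL1 levels of Adm, 8.77, 6.86, 8.998 and 8.31, reached from below to above those of the spleen. Of the promoters found, 14 of 20 glycolytic genes and 11 of 12 of the other hypoxia-inducible genes held the hypoxia core, beside 63.5% of all tested genes. Both counts include members without a call, and the second also Adm, which rose. The second list was compiled as hypoxia-inducible genes, so its share does not bear on the falls.

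Of the pathway lists, ribosome biogenesis had the largest share of falls, 14 of 25, with 0 rises and a median of -0.57. Under median centring the median was -0.14, with 1 rise and 1 fall, so these falls are relative to the quantile scale. Nol5a (now Nop56), a component of the ribosomal RNA methylation complex, was at 9.13, 9.07, 9.41 and 9.51 in the spleen and 10.59, 10.78, 10.23 and 10.10 in the peritoneum (-1.15 ± 0.20). Gnl3, which encodes nucleostemin, fell by 0.93 ± 0.19 and Rrp9 by 0.90 ± 0.17. Of 28 oxidative phosphorylation genes 1 fell and 0 rose, and 2 fell without the PtC- peritoneal array of replicate 2.

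Amino acid stress genes of the ATF4 pathway rose in part, 7 of 21, with 3 falls and a median of 0.19. Atf4 itself, the transcription factor of the pathway, was at 13.24, 13.55, 13.22 and 13.36 in the spleen and 11.69, 11.95, 11.70 and 12.01 in the peritoneum (1.51 ± 0.16, adjusted p = 0.000351). The tissues were more than 1 log2 unit apart at their closest arrays. Slc38a2, an amino acid transporter, rose by 1.50 ± 0.20, Ddit3, which encodes CHOP, by 1.38 ± 0.36 and Sesn2 by 1.24 ± 0.21. The glycyl-tRNA synthetase gene Gars (0.26 ± 0.14) and the folate enzyme gene Mthfd2 (0.22 ± 0.22) did not pass. Of 22 cholesterol and fatty acid genes 3 rose and 3 fell (13.6% each), shares near those of all genes. Without the PtC- peritoneal array of replicate 2, 6 fell. Abcg1, a cholesterol exporter, rose by 2.23 ± 0.29 and the regulator Srebf2 by 1.16 ± 0.27, whereas the synthesis enzymes Sqle and Sc4mol (now Msmo1) fell by 0.93 ± 0.14 and 1.19 ± 0.25.

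Of 24 interferon-stimulated genes 9 rose (37.5%, beside 15.6% of all genes) and 2 fell, with a median of 0.49. With undetected values raised to the lowest detected level the median was 0.17. Rsad2 (viperin) was at 7.12, 6.51, 7.45 and 7.07 in the spleen and undetected in the peritoneum, at least 2.26-fold higher (adjusted p = 0.000645). Oas2 was undetected in the peritoneum as well, and Irf7, the amplifier of the interferon response, rose by 1.28 ± 0.19. Gbp2, a guanylate-binding protein induced by interferon gamma, was at 10.09, 10.18, 10.38 and 10.47 against 9.54, 9.44, 9.24 and 8.58 (1.08 ± 0.23). Irf1, a transcription factor of the response, was among the falls (-0.78 ± 0.14) and is named after its value was seen.

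Of 22 antigen presentation genes 2 rose and 4 fell, a share near that of all genes. Tap1 and Tap2, the peptide transporter chains of the MHC class I route, each rose, by 1.02 ± 0.18 and 1.02 ± 0.19. H2-Oa and H2-Ob, the chains of the B cell regulator of class II peptide loading, fell by 0.79 ± 0.15 and 0.92 ± 0.17. Cd74, H2-Ab1 and H2-Eb1 had no call and lay at 14.73 to 15.39, near the ceiling. H2-Ea, which C57BL/6 mice lack through a deletion and C3H mice express, was at 5.47, 5.33, 5.94 and 6.20 in the spleen and 8.89, 10.63, 8.21 and 9.98 in the peritoneum (-3.69 ± 0.49, adjusted p = 0.00123). On the same mixed background H2-Ea stood at 12.90 and 12.91 in wild type cells and at 4.76 and 4.84 in young TCL1 cells. H2-Ea differed between peritoneal arrays by over 2 log2 units, in the order PtC+ replicate 2, PtC- replicate 2, PtC+ replicate 1, PtC- replicate 1. Ccl9, Lyz2, Fcna, Emp1, Retnla and Saa3 were in the same order, and Lyz, Arg1, Vsig4 and C1qb were not. These genes were picked from the 20 largest falls, and the share of all genes in that order was not counted. Among the rest of the 20, Lyzs (another Lyz2 probe) was in that order. C1qc, Trf, Ednrb, Lyz1, Hbb-b1, Cpm, Ccnd1 and Fkbp11 were not. For Saa3 the order rests on close levels, 12.30, 12.66, 12.29 and 12.33.

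Survival and stress genes moved in both directions. Of 20 BCL2 family and cell death genes 3 rose (15%) and 1 fell (5%), shares no larger than those of all genes. Bcl2 rose by 0.92 ± 0.25, with levels of 9.78, 9.77, 9.46 and 9.39 against 8.24, 8.81, 8.37 and 9.31. Bmf, a BH3-only killer, was undetected in the spleen. Mcl1 (0.17 ± 0.14) did not pass. Of 17 p53 targets 3 rose and 5 fell. Sesn1, which FOXO factors also induce, was at 9.76, 9.73, 9.80 and 9.82 in the spleen and 11.45, 11.52, 11.31 and 11.35 in the peritoneum (-1.63 ± 0.13, adjusted p = 0.000127). The closest arrays of the tissues were more than 1 log2 unit apart for Sesn1, and the arrays of each tissue lay close together. Mdm2 (0.03 ± 0.19) did not pass. Of 16 FOXO targets 5 rose, among them Irs2 (2.34 ± 0.40) and Cited2 (1.35 ± 0.16), and 4 fell. Of 13 glucocorticoid-induced genes 4 rose and 2 fell: the kinase gene Sgk1 rose by 2.42 ± 0.38 and Tsc22d3 (GILZ) by 0.60 ± 0.14, while Txnip (-0.06 ± 0.16) did not pass. Of 21 heat shock genes 1 rose and 2 fell. Hspa1a, the inducible HSP70 gene, was undetected in the peritoneum and at 6.14, 6.30, 6.40 and 5.85 in the spleen, and Hspa8 (-0.25 ± 0.13) and Hsp90ab1 (-0.01 ± 0.14) did not pass.

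**Figure D3:**
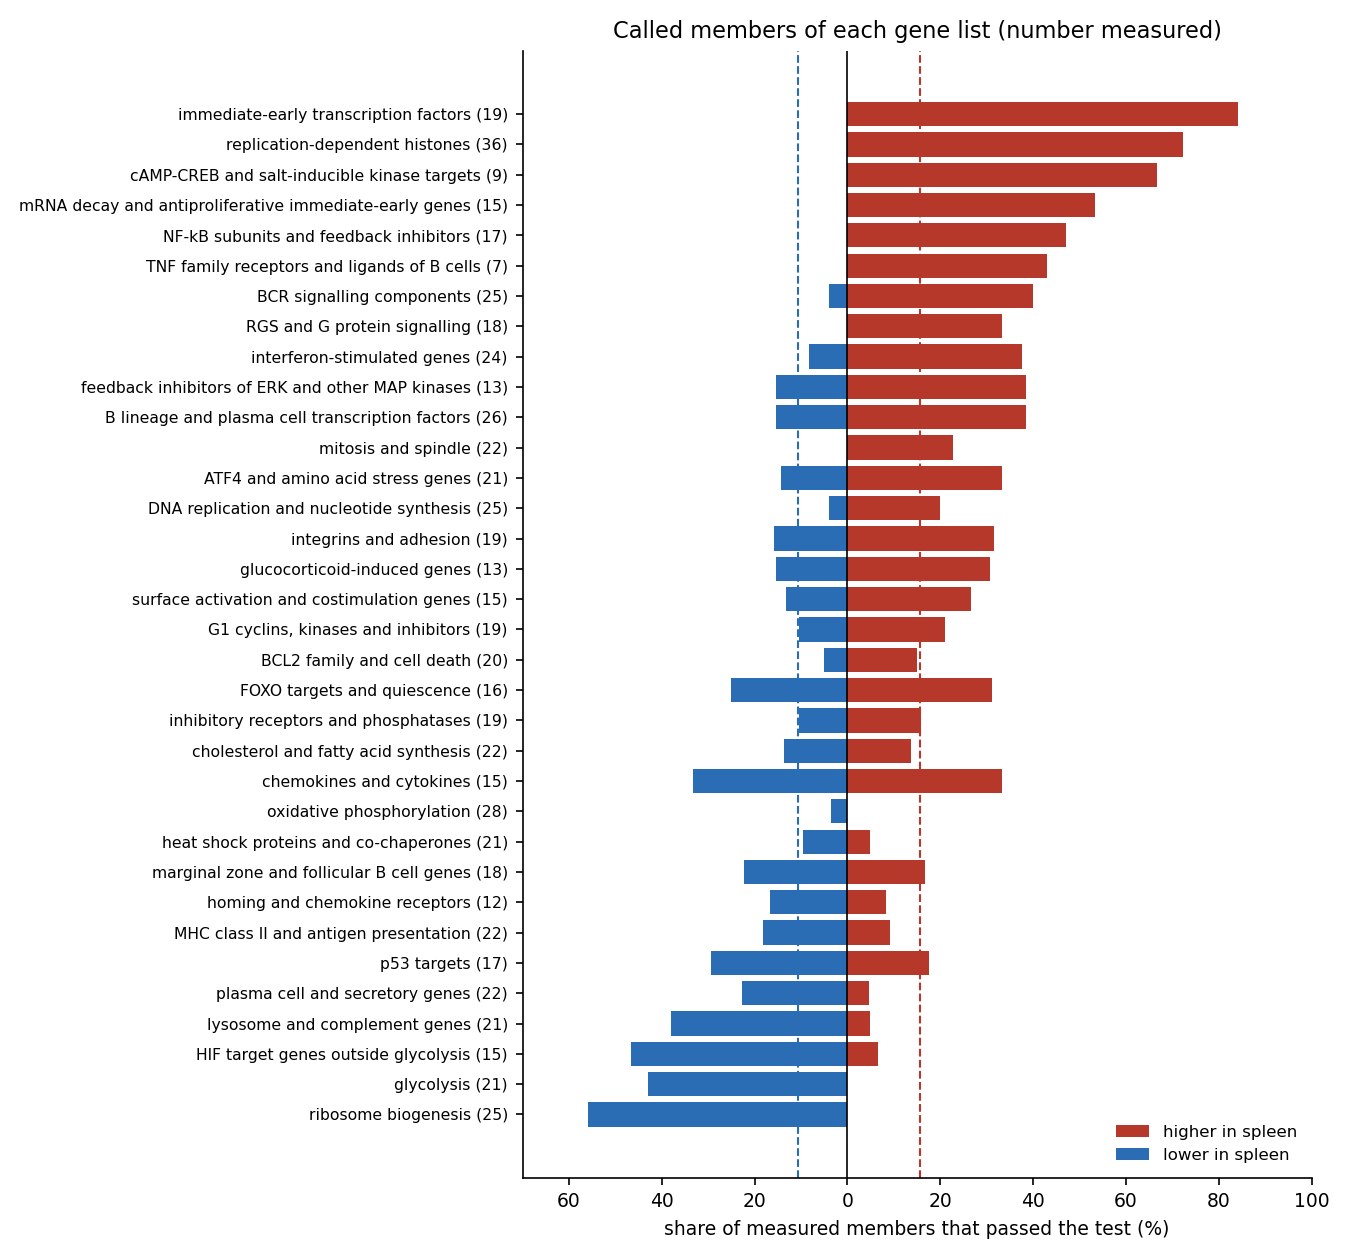
Share of the measured members of each of 34 gene lists that passed the test, higher (red, to the right) or lower (blue, to the left) in the spleen, with the number measured in brackets. Dashed lines mark the shares of all 12067 genes, 15.6% higher and 10.6% lower. Immediate-early factors and histones reach 84.2% and 72.2% higher, and ribosome biogenesis 56% lower.

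The cells carried B cell markers in both tissues. The 8 B cell markers measured, among them Cd79b, Ms4a1 and Blk, had no call, and their summed levels (normalized intensity on a linear scale) were 47800 to 55800 in the spleen and 42200 to 52200 in the peritoneum. Markers of other cells differed between the tissues. In such bulk samples fewer cells of a type and less RNA per cell cannot be told apart.

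Most macrophage markers were lower in the spleen. All 11 large peritoneal macrophage markers measured were lower in the spleen, with a median of -2.13. Their summed level was 1220 to 1690 in the spleen and 9070 to 11400 in the peritoneum, and 9 of the 11 were undetected on every spleen array. Of 12 general macrophage markers 8 were lower, with summed levels of 2400 to 2820 against 11600 to 16300, and Lyz2, C1qa, C1qb, C1qc, Cd14, Csf1r and Marco were undetected on all spleen arrays. Vsig4, a complement receptor of resident macrophages, was at 7.39, 8.87, 8.35 and 8.95 in the peritoneum and at least 7.13-fold lower in the spleen. Prg4 (at least 4.56-fold lower), which encodes lubricin, and Timd4, a receptor for dying cells, were undetected in the spleen as well. Apoe, made by macrophages and by other cells, had its highest spleen level at 9.36 and its highest peritoneal level at 12.64 (-3.20 ± 0.16), without overlap. Cd68 (0.22 ± 0.18) and Mrc1 (0.02 ± 0.18) were detected in both tissues and had no call. Of 21 lysosome and complement genes 8 fell, among them the C1q chains, and 1 rose, Psap (0.75 ± 0.20), named after its value was seen. Without the PtC- peritoneal array of replicate 2, 7 fell and 3 rose. Trf, which encodes transferrin, was undetected in the spleen and at 8.77, 9.37, 9.58 and 9.87 in the peritoneum, and the endothelin receptor Ednrb at 7.85, 8.78, 8.90 and 9.14. What part macrophage RNA had in the falls, among them those of the chemokines, Trf, Ednrb and H2-Ea, was not tested.

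Other markers moved with the tissues too. Erythroid markers summed to 1660 to 2420 in the spleen and 20400 to 34200 in the peritoneum, and 5 of 7 were lower in the spleen. Alas2, the haem synthesis enzyme of red cell precursors, was undetected in the spleen. T cell markers summed to 9050 to 11700 and 8110 to 10600, and Cd3d was undetected in the spleen while Lck fell by 0.61 ± 0.17. Neutrophil markers were undetected in the peritoneum, all 4 of them. S100a8 was at 7.10, 5.75, 7.79 and 7.25 in the spleen (at least 2.16-fold, adjusted p = 0.00554), and it was lowest on PtC+ replicate 2. Stromal and epithelial markers split. Krt8 and Krt18, keratins also reported in B cells, rose without overlap. Krt8 was at 13.66, 13.59, 13.89 and 13.74 against 10.67, 10.76, 11.26 and 11.13 (2.77 ± 0.14). Krt18 was at 9.60, 9.95, 9.91 and 10.10 against 7.31, 7.98, 7.69 and 7.91 (2.16 ± 0.19). Sparc rose by 0.86 ± 0.15 and Vim by 1.21 ± 0.26, while Dcn, of fibroblasts, was undetected in the spleen and at 7.10, 8.47, 7.48 and 8.46 in the peritoneum. The part of such cells in the results was not tested.

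**Figure D4:**
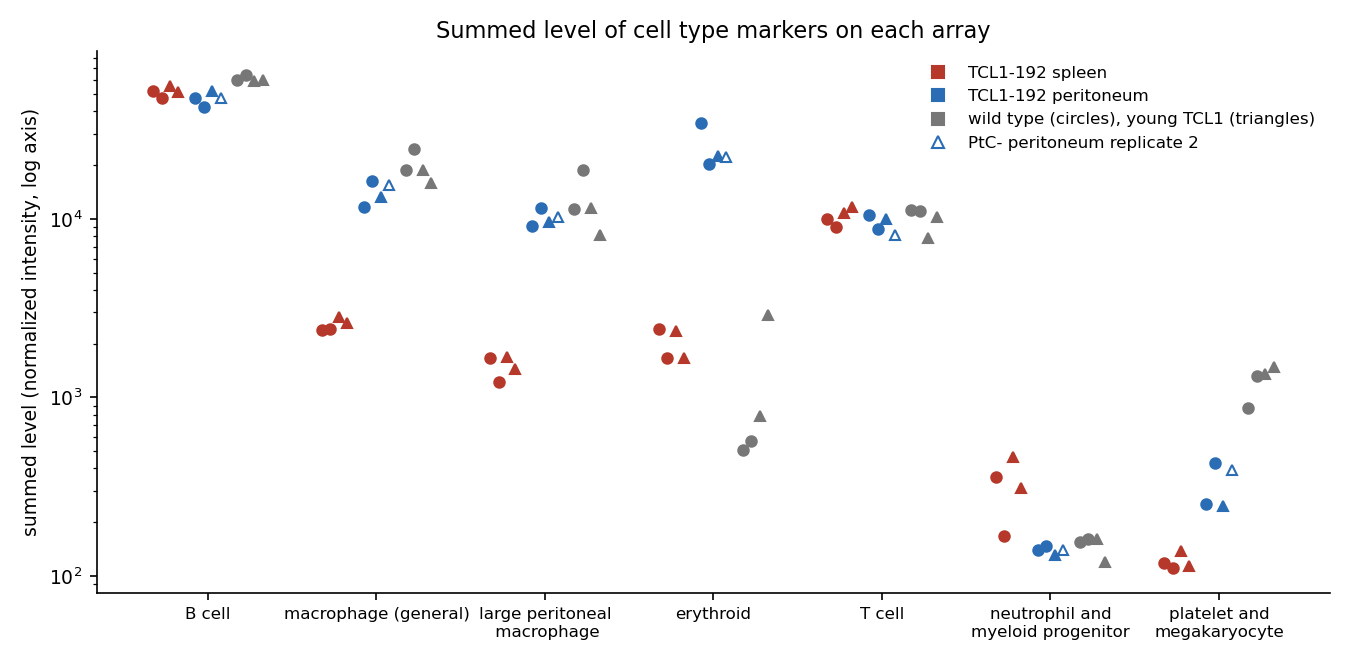
Summed normalized intensity (log axis) of the measured markers of 7 cell types on each array, with spleen in red, TCL1-192 peritoneum in blue and the wild type and young TCL1 arrays in grey. B cell and T cell sums overlap between the tissues, while macrophage, erythroid and platelet sums of the 4 peritoneal arrays lie above all 4 spleen arrays. The neutrophil sums of the spleen lie above those of the peritoneum.

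Called genes differed in the same direction in PtC+ and PtC- cells. Fitted by class, 2966 genes passed in PtC+ cells (24.6%) and 903 in PtC- cells (7.48%), each with 2 arrays against 2. Of these, 739 passed in both in the same direction and 0 in opposite directions. For the 3162 genes of the joint test the sign was the same in both classes for all 3162, which the joint test favours. Across all genes the differences of the classes correlated at r = 0.716 (12067 genes of the same 8 arrays, which are not independent replicates). The test of the difference between the classes called 0 genes in limma (0%), with 1477 at an unadjusted p under 0.05. The residual SD of the PtC- peritoneal group was 0.549, against 0.215 to 0.303 in the other 3. The counts of the classes moved with single arrays. Leaving out 1 array gave 518 to 4510 calls in PtC+ cells, fewest without spleen replicate 1 and most without either PtC- peritoneal array. In PtC- cells the count was lowest without spleen replicate 1 and highest without peritoneal replicate 1. That last fit left replicate 2, the array with raised background, as the only PtC- peritoneal array. Of the fits without 1 array, it was the only one in which the test between the classes called any genes.

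Il10, Hist1h1c, Ccnd1 and Fkbp11, picked from the joint calls, had differences of the same sign and order of size in both classes. The joint test favours genes that differ alike in both. Il10 rose by 2.77 ± 0.28 in PtC+ and 3.07 ± 0.28 in PtC- cells, and Hist1h1c by 2.18 ± 0.17 and 1.88 ± 0.17. Ccnd1 differed by -3.72 ± 0.26 and -4.51 ± 0.26, and Fkbp11 by -4.26 ± 0.21 and -3.90 ± 0.21. The genes with the highest and lowest moderated t for a difference between classes were, leaving out gene models without a name, Pou2f1, Upf1 and Mfhas1 on the PtC+ side and Polr3g, Mcart6 and Skp1a on the other, all at adjusted p = 0.384. Pou2f1, which encodes the octamer factor OCT1, was at 9.74, 9.73, 9.19 and 9.18 in the spleen and 8.10, 8.07, 8.94 and 9.03 in the peritoneum. Its tissue difference was 1.65 ± 0.17 in PtC+ and 0.20 ± 0.17 in PtC- cells, and the peritoneal PtC+ arrays were the lowest and the spleen PtC+ arrays the highest. Skp1a, of the SCF ubiquitin ligase, differed by -1.34 ± 0.20 in PtC+ and 0.16 ± 0.20 in PtC- cells, and the peritoneal PtC+ arrays were the high ones.

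**Figure D5:**
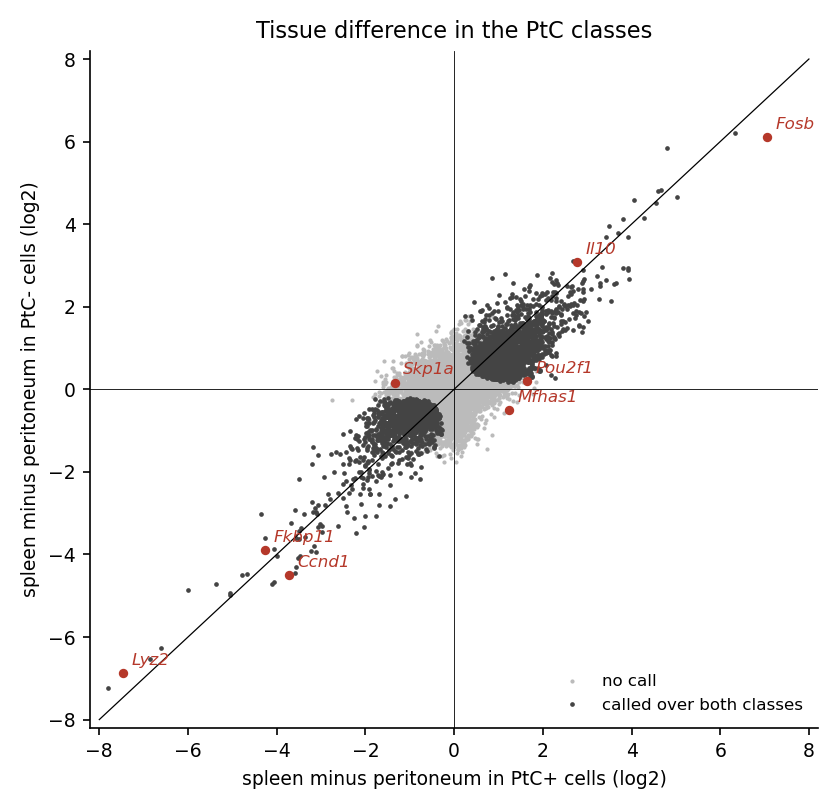
Log2 difference between spleen and peritoneum in PtC+ cells (horizontal) and PtC- cells (vertical) for 12067 genes, with the line of equality. Genes called over both classes are dark, and 8 named genes are red. Il10, Ccnd1, Fkbp11 and Lyz2 lie near the line, and Pou2f1, Mfhas1 and Skp1a away from it.

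The mean of the 4 wild type and young TCL1 peritoneal arrays, 1 per group and without a test, fell between the tissues for most of the called genes. Single arrays need not lie there. Those of H2-Ea were at 12.90 and 12.91 in wild type and 4.76 and 4.84 in young TCL1 cells, above and below both tissues. Of the 1877 genes higher in the spleen, the mean of the 4 arrays lay between the TCL1-192 tissues for 1040, below both for 463 and above both for 374. Of the 1285 lower genes it lay between for 723, below both for 231 and above both for 331. For the 16 immediate-early factors that rose it lay between the tissues for 12 and below both for 4. Egr3 was at 10.32, 9.02, 9.77 and 8.14 on these arrays, 2 of them within the range of its spleen levels and 2 below it. Junb (10.57, 10.74, 10.32 and 10.45) lay above the TCL1-192 peritoneum and below the spleen. Ccnd1 was at 8.45, 9.20, 8.14 and 6.31, below the TCL1-192 peritoneum on all 4 arrays and below the spleen on 1.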

How the data were processed

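Illumina bead arrays measured mRNA of 12 samples, of which the 8 TCL1-192 arrays were compared. The authors deposited, per the file headers, a non-normalized intensity and a detection p-value per probe, and a normalized table, which was an alternative here. RNA was amplified and labelled with a MessageAmp kit, per the labels' protocols. Signals were background-corrected with normexp on detection p-values, quantile-normalized over 12 arrays and put on the log2 scale (neqc, offset 16) in limma 3.58.1 (R 4.3.3), as log2 values computed here from the deposited intensities. Probes detected (p-value under 0.05) on at least 2 arrays were kept, and 1 probe per symbol was tested. The model had tissue and PtC class, with group means for the tests within classes. An exact permutation test of 4 against 4 arrays cannot go below 0.0286. The number of arrays limits precision. Named genes were the 20 largest rises and falls without overlap, up to 6 called and 3 uncalled members of each list, cell type markers, and 3 genes on each side of the test between PtC classes. Members and lists were chosen with earlier results of these data known. Symbols are those of the array, and 7534 of the tested matched RefSeq directly. A few genes that the rule takes are not reported here.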

Additional observations from a re-analysis of the deposited data

Results flagged for a closer look

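With 390 sets of 4 array values examined, in 22 the highest or lowest array lay far from the other 3 of its tissue, and chance gives about 1 in 20. The PtC- peritoneal array of replicate 2 was the outlying one in 7. Its median signal was 219.2, its undetected probes averaged 205.4, and it detected 10711 probes. It was low for Ldha (12.91). It was also low for Crem (4.93), Id2 (5.16) and Pdcd1lg2 (6.23), which it did not detect. Peritoneal PtC+ replicate 2 was high for Bnip3l (11.73) and Saa3 (12.66), and peritoneal PtC- replicate 1 for Csf1 (5.72). Among the spleen arrays, PtC+ replicate 1 was high for Arhgef1 (11.08), Ddit3 (8.33) and Per1 (9.10) and low for Bnip3l (9.60), Lyz (6.00) and Sc4mol (6.98). Spleen PtC+ replicate 2 was high for Crem (6.51). Spleen PtC- replicate 1 was low for E2f1 (9.49) and Zfp36 (12.66) and high for Rgs1 (7.22), and spleen PtC- replicate 2 was high for Adora2a (6.40) and Rb1 (12.06). The causes were not tested.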

How the results depend on the processing

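The count of tissue calls was 3162. Array weights gave 5495 (2886 higher, 2609 lower), and leaving out 1 array gave 1985 to 3791. Median centring gave 3130 calls, 2768 higher and 362 lower, with 2125 of the 3162 called again and 13 of opposite sign. Undetected values set to the lowest detected value gave 3105, with 127 of opposite sign. The other settings gave counts within 1.5 times the main one. Within PtC+ cells, 2966 calls became 518 to 4510 on leaving out 1 array. Within PtC- cells, 903 became 99 to 3931, and 1428 with an intensity trend in the prior. The test between the classes called 0 to 1499 genes on leaving out 1 array. The causes were not tested. Samples with the same replicate number correlated at 0.0593 to 0.276 between groups over their deviations from the group means. The highest values were PtC+ with PtC- spleen (0.276), PtC+ with PtC- peritoneum (0.223) and PtC+ of both tissues (0.22). The labels do not say whether such arrays share animals, so the arrays of a tissue may not be independent samples. The main fit did not pair the numbers. A replicate block gave 3329 tissue calls, 3412 in PtC+ cells, 1084 in PtC- cells and 0 between the classes. Of 166 called genes named in the text, 118 were called in each of the 22 settings that tested them, and 0 reversed. Some named genes were not tested where detection on at least 4 of the 8 arrays was required. Arrays without separate animals in the labels, the ceiling of the bright probes and the background of 1 array limit all values.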

Other observations

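Sex-linked transcripts differed between the arrays. Xist, expressed from the inactive X chromosome, was at 8.07 to 10.48 on the TCL1-192 arrays and at 4.91 to 5.12 on the wild type and young TCL1 arrays. Ddx3y, a Y-linked gene, was at 6.27 to 8.35 and at 10.44 to 11.40. Between spleen and peritoneum Xist differed by 1.198 ± 0.30 and Ddx3y by 1.31 ± 0.26, both higher in the spleen, while Uty, also Y-linked, did not pass (-0.12). Each TCL1-192 array thus carried transcripts of both kinds. The sources used here do not say how many animals gave each sample.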
